A study of Homo sapiens with 18 samples.

Results

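The sterol and fatty-acid synthesis genes were 32 gene symbols read by name from the count tables of both cell lines, of 23686 symbols in each table. They comprised 7 enzymes of the early mevalonate steps, 9 enzymes from squalene to cholesterol, 3 regulators, 2 carriers of sterol inside cells, 8 genes of fatty-acid synthesis and 3 genes of cholesterol efflux and receptor control. All 32 were found, and 31 in TMD8 and 32 in OCI-Ly1 had enough counts to be tested. OCI-Ly1 and TMD8 are human diffuse large B-cell lymphoma lines. OCI-Ly1 was kept in IMDM and TMD8 in RPMI 1640, each with 10% fetal bovine serum, so line and medium cannot be told apart. In each line 3 libraries came from cells given the vehicle (0.01% DMSO), 3 from cells given 150 nM JIB-04 and 3 from cells given 500 nM JIB-04, 18 in all. JIB-04 is a small-molecule inhibitor of Jumonji-family histone demethylases. The length of treatment is not given in the sources used here. The libraries were technical triplicates of rRNA-depleted total RNA, and the labels name no separate cultures, so the p-values cover only the spread between these libraries.

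Cells build cholesterol from acetyl-CoA through mevalonate, farnesyl diphosphate, squalene and lanosterol, and build fatty acids from the same acetyl-CoA through malonyl-CoA. Both routes are controlled by the membrane-bound factors SREBP-2 and SREBP-1, products of SREBF2 and SREBF1, which INSIG1 holds in the endoplasmic reticulum when sterol is plentiful. When oxysterols build up, liver X receptors raise ABCA1 and ABCG1, which export cholesterol, MYLIP, a ubiquitin ligase that lowers lipoprotein receptors, and SREBF1 itself.

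The 250 bases before the start of 27 of the 32 genes were matched by symbol in RefSeq promoters (GRCh38.p14), as 36 windows because some genes have several starts. ACAT2, FDFT1, SQLE, FASN and ABCG1 had no match. The following windows are shown because the results below turn on these genes and because they differ in how often they hold CCAAT, the NF-Y box that often stands beside SREBP sites. Capitals mark CCAAT on either strand (ATTGG where it is read from the other strand) and, in SREBF2, the letters TCACNCCAC of the sterol regulatory element core.
HMGCS1 (chr5:43313413-43313662, minus strand): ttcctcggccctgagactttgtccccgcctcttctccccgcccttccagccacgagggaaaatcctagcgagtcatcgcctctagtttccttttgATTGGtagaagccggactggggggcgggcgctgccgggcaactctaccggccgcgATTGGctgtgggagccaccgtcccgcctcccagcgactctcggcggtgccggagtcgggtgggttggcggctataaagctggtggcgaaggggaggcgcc
FDPS (chr1:155308616-155308865, plus strand): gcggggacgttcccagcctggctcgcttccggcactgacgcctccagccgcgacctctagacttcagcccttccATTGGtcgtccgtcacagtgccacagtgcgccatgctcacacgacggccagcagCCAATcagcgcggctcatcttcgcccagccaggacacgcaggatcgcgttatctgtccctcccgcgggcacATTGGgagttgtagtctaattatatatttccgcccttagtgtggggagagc
LSS (chr21:46228775-46229024, minus strand): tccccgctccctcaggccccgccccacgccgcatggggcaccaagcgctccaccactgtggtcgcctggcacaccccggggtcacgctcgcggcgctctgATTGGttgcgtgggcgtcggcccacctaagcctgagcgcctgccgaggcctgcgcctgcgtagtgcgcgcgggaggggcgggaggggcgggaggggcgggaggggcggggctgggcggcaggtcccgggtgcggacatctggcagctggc
NSDHL (chrX:152830813-152831062, plus strand): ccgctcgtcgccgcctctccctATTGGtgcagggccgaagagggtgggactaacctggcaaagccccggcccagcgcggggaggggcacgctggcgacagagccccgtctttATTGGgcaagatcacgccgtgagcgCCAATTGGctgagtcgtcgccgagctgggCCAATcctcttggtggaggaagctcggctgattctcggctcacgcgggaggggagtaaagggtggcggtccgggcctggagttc
SREBF2 (chr22:41832855-41833104, plus strand): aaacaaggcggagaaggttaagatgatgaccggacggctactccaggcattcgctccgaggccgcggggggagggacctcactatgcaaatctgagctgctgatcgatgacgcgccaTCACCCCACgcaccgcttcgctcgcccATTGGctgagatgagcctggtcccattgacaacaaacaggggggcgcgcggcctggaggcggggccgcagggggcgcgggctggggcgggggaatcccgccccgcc
SREBF1 (chr17:17836987-17837236, minus strand): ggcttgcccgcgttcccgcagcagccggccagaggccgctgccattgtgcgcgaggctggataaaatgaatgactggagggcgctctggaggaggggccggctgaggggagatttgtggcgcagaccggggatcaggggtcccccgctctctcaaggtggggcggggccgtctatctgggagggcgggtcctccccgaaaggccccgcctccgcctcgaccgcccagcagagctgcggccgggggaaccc
CCAAT was found in 19 of the 27 matched genes (70.4%), against 37.0% of all 27305 genes with a window of this length. NSDHL held 5 copies, 2 of which overlap, FDPS 3, HMGCS1 2, LSS 1 and SREBF1 0 in the windows printed. The letters TCACNCCAC were found in 1 of the 27 genes (3.7%), SREBF2, at 133 bases before its start, against 1.09% of all genes. The E-box CACGTG was found in INSIG1 and ABCA1, 7.41% of the matched genes, against 7.73% of all genes. All 3 motifs were searched on both strands. A match is a description of letters and shows no binding.

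Total estimated counts ran from 17579732 to 32651115 in the OCI-Ly1 libraries and from 9550092 to 20509500 in the TMD8 libraries. Values per library are CPM, counts scaled to a common depth with TMM factors within a line. Markers of cell types, and the means of genes that overlap a member, are instead CPM by total counts alone, without TMM factors. The B-cell markers MS4A1, CD79A, CD79B, PAX5, CD22 and BLK were each above 1 CPM in every library. Of the markers of other cells, CD3D and CD3G summed with CD3E and CD2 to 18.6 to 21.8 CPM in OCI-Ly1 with DMSO and 8.63 to 9.89 at 500 nM, and COL1A1 in TMD8 went from 2.92 to 3.81 CPM with DMSO to 30.1 to 30.7 at 500 nM with COL3A1 and DCN at 0.540 or below; their part in the results was not tested. The 4 monocyte markers summed to at most 3.68 CPM in any library, and of the 4 hepatocyte and adipocyte markers only ADIPOQ was above 1 CPM in every library. In bulk RNA, fewer cells of a kind and less RNA per cell cannot be told apart. TPM could not serve as the main scale, since 7 short RNAs (RPPH1, RMRP, MIR3687, MIR3648, MIR663A, MIR663B and MIR4461, picked after their values were seen) held 52.7% to 60.6% of TPM in TMD8 with DMSO and 69.7% to 72.8% at 500 nM. The median log2 change of all tested genes at 500 nM was -0.00 in OCI-Ly1 and 0.04 in TMD8 on the edgeR scale, 0.10 and -0.22 on log2(TPM + 1), and 0.21 and 0.18 once TPM was rescaled without those RNAs. Small changes of genes therefore take their sign from the scale.

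A gene was called higher or lower where the adjusted p of edgeR's quasi-likelihood test, adjusted over all genes tested, was under 0.05. At 150 nM in OCI-Ly1 none of the 32 genes was called by edgeR, DESeq2 or limma, against 0.748% of all genes called higher and 0.141% called lower; at an unadjusted p under 0.05 edgeR had 1 higher and 8 lower. At 500 nM in OCI-Ly1, 6 were called higher and 15 lower, against 27.7% and 25.9% of all genes. In TMD8 at 150 nM, 5 of 31 were higher and 18 lower, against 19.2% and 25% of all genes. At 500 nM in TMD8, 9 were higher and 13 lower, against 29.9% and 30.7% of all genes, so the share called higher was close to that of all genes. From 150 to 500 nM the counts were 5 higher and 12 lower in OCI-Ly1 (all genes 25.1% and 21.1%) and 13 higher and 4 lower in TMD8 (all genes 13.7% and 15%). Of those lower from 150 to 500 nM in OCI-Ly1, ACLY, ACACA, SCD and ABCA1 were above 0 on rescaled TPM (0.029, 0.027, 0.086 and 0.0060). On other scales the split moved: at 500 nM OCI-Ly1 had 7 higher and 10 lower on log2(TPM + 1), 4 and 17 after centring, and 15 and 6 on rescaled TPM, while TMD8 had 2 and 21, 8 and 18, and 14 and 10. The split of all genes moved as well. Of all genes called on these scales, 71.9%, 32.3% and 84.7% were higher in OCI-Ly1, and 18.8%, 48.3% and 68.3% in TMD8. In TMD8 at 150 nM the split kept its direction on the same scales, at 1 and 19, 3 and 20, and 5 and 16. There 21.3%, 36% and 65.6% of all called genes were higher.

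**Figure D1:**
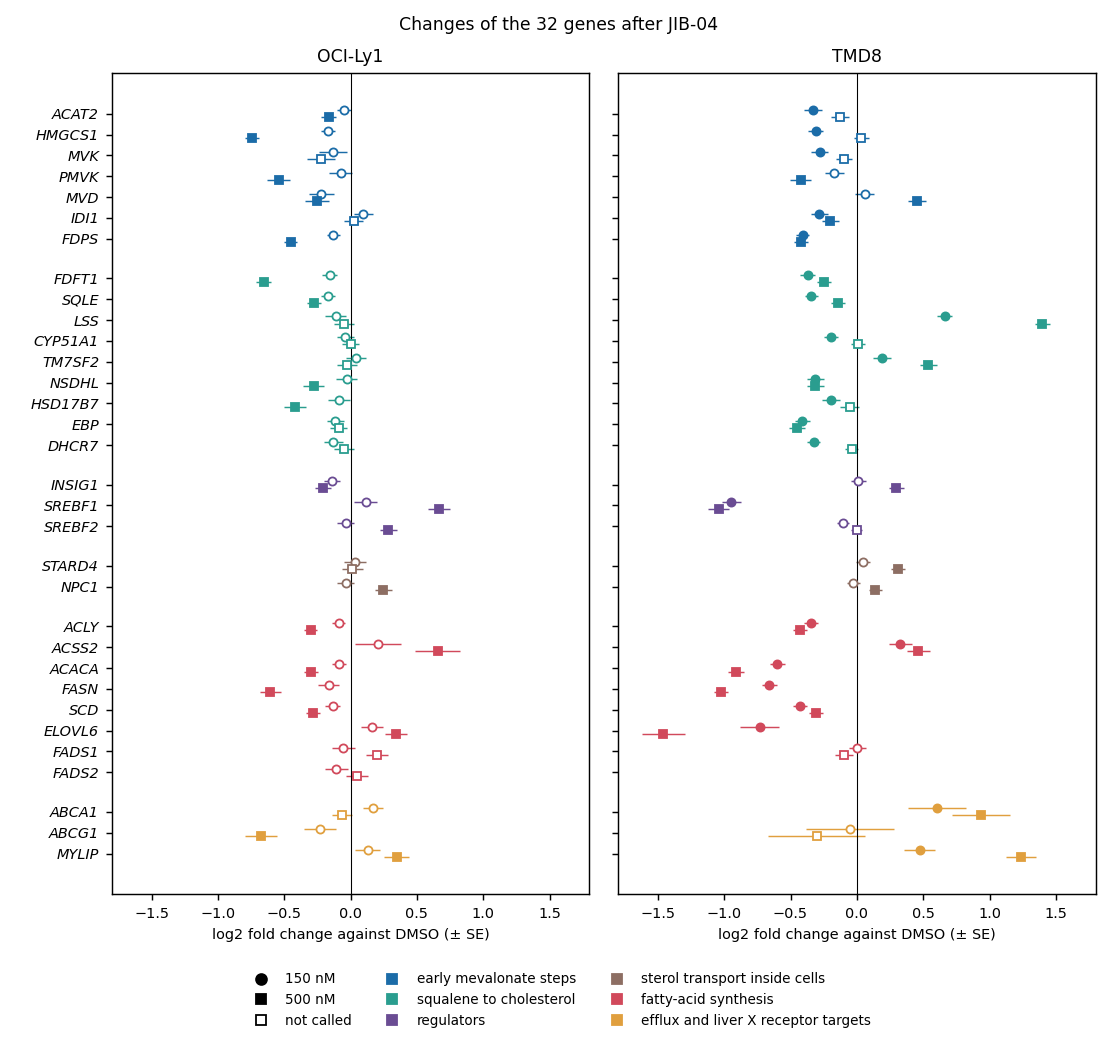
Log2 fold changes of the 32 genes against DMSO in OCI-Ly1 (left) and TMD8 (right), with 1 SE; circles are 150 nM, squares 500 nM, and open symbols were not called. In OCI-Ly1 all circles are open, and in TMD8 LSS lies far to the right at 1.40 and ELOVL6 far to the left at -1.46.

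Of the 7 early mevalonate enzymes, 5 were lower and 0 higher in OCI-Ly1 at 500 nM (DESeq2 gave the same counts, an unadjusted p gave 6 lower and 0 higher, and rescaled TPM 3 lower and 1 higher). Their median log2 change was -0.26, beside -0.00 for all genes, of which 25.9% were lower and 27.7% higher. HMGCS1, which makes HMG-CoA, had 236, 246 and 239 CPM with DMSO, 214, 212 and 213 at 150 nM, then 153, 137 and 141 at 500 nM. No 500 nM library reached the level of any other library, with a log2 change of -0.74 ± 0.05 (SE, edgeR adjusted p = 1.8e-09). In TMD8 the same gene had 344, 312 and 313 CPM with DMSO, 283, 255 and 244 at 150 nM, then 320, 340 and 331 at 500 nM, so that the 150 nM group lay lowest (-0.31 ± 0.06, edgeR adjusted p = 0.00027). At 500 nM HMGCS1 in TMD8 was not called (0.03 ± 0.06), but log2(TPM + 1) gave -0.33, which passed the threshold. FDPS, which makes farnesyl diphosphate, went in OCI-Ly1 from 257, 247 and 253 CPM to 186, 183 and 185 at 500 nM. In TMD8 it went from 204, 189 and 185 CPM to 154, 141 and 141 at 150 nM and 141, 147 and 145 at 500 nM. The FDPS fall at 500 nM was -0.45 ± 0.05 in OCI-Ly1 (edgeR adjusted p = 5.9e-07) and -0.42 ± 0.05 in TMD8 (edgeR adjusted p = 1.4e-06), and the groups did not overlap in either line.

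PMVK, the phosphomevalonate kinase, also fell at 500 nM in both lines (-0.54 ± 0.09 and -0.42 ± 0.08). It had 47.1, 45.6 and 41.1 CPM in OCI-Ly1 with DMSO and 33.1, 30.0 and 28.7 at 500 nM, and in TMD8 27.7, 33.3 and 31.9 with DMSO and 24.4, 22.7 and 22.2 at 500 nM. MVD, the decarboxylase that acts next in the route, was called in opposite directions in the lines. In TMD8 it had 45.4, 54.3 and 56.7 CPM with DMSO, 55.4, 54.2 and 53.8 at 150 nM, then 68.0, 74.9 and 71.9 at 500 nM, a log2 change of 0.45 ± 0.07 (edgeR adjusted p = 2e-05). On log2(TPM + 1) MVD was not called higher there. In OCI-Ly1 it had 42.3, 43.0 and 32.6 CPM with DMSO and 33.4, 32.7 and 32.4 at 500 nM. There the DMSO and 500 nM libraries overlapped, the call at -0.26 ± 0.09 was lost when DMSO replicate 1 or 2 or 500 nM replicate 2 or 3 was left out (range -0.38 to -0.20), and rescaled TPM gave 0.02. ACAT2, the cytosolic thiolase that makes acetoacetyl-CoA, had a log2 change of -0.17 ± 0.05 in OCI-Ly1 at 500 nM, which was 0.10 on rescaled TPM and was not called without DMSO replicate 3 or 500 nM replicate 2. IDI1, the isomerase of isopentenyl diphosphate, was not called in OCI-Ly1 (0.02 ± 0.07) and was lower in TMD8 at 150 nM (-0.28 ± 0.06) and at 500 nM (-0.20 ± 0.06). Its TMD8 call at 500 nM was lost with library size alone. On rescaled TPM it was not called there, with a mean of 140.8 with DMSO and 138.7 at 500 nM. MVK, mevalonate kinase, was called in neither line at 500 nM, at -0.23 ± 0.11 and -0.10 ± 0.06. ACAT2, MVK and IDI1 overlap genes on the opposite strand (TCP1, MMAB and IDI2-AS1), and no strand setting is stated for the counting: TCP1 averaged 707.7 CPM with DMSO and 484.9 at 500 nM in OCI-Ly1, and 209.6 and 116.8 in TMD8.

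From squalene to cholesterol, 4 of 9 enzymes fell in OCI-Ly1 at 500 nM and 0 rose by edgeR (0 also by DESeq2 and at an unadjusted p, but 5 on rescaled TPM), while TMD8 had 2 higher and 4 lower (5 and 2 on rescaled TPM, 1 and 7 on log2(TPM + 1)). Of all genes, 25.9% were lower and 27.7% higher in OCI-Ly1 at 500 nM, and 30.7% and 29.9% in TMD8. LSS closes the rings to make lanosterol. In TMD8 it had 220, 247 and 245 CPM with DMSO, 347, 384 and 396 at 150 nM, then 612, 624 and 640 at 500 nM. The 3 groups did not overlap, and the level rose 2.64-fold at 500 nM (log2 1.40 ± 0.06, edgeR adjusted p = 1.9e-12), the largest rise among the 31 genes tested in TMD8. In OCI-Ly1 LSS had 101, 95.4 and 88.5 CPM with DMSO, 101, 84.9 and 77.8 at 150 nM, then 90.8, 93.6 and 90.9 at 500 nM, with all 3 groups overlapping and a log2 change of -0.05 ± 0.08 (edgeR adjusted p = 0.6), which was 0.28 on rescaled TPM and passed the threshold there. On rescaled TPM, which is per length, LSS in TMD8 had a mean of 99.4 ± 5.54 (SD, n = 3) with DMSO, 172.2 ± 17.8 at 150 nM and 304.9 ± 10.3 at 500 nM. The ratio of its counts to its TPM, relative to other genes, was 1.52 with DMSO and 1.48 at 500 nM in TMD8.

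TM7SF2, a sterol reductase, rose with LSS in TMD8. It had 39.2, 42.5 and 44.3 CPM with DMSO, 49.5, 51.2 and 43.7 at 150 nM, then 61.5, 62.2 and 59.6 at 500 nM (log2 0.54 ± 0.07, edgeR adjusted p = 1.5e-06). On log2(TPM + 1) TM7SF2 was not called higher in TMD8 at either dose. Its 150 nM call (0.19 ± 0.07) was lost without DMSO replicate 1 or 2 or 150 nM replicate 1 or 2, with a range of 0.14 to 0.29. In OCI-Ly1 TM7SF2 had 32.7 to 34.4 CPM with DMSO and 31.9 to 33.6 at 500 nM, not called (-0.02 ± 0.08) but 0.24 and called on rescaled TPM. It overlaps VPS51 on the same strand, which averaged 86.3, 98.7 and 91.5 CPM in the TMD8 groups in order of dose. FDFT1, squalene synthase, had the largest fall of the 9 in OCI-Ly1, from 165, 159 and 165 CPM to 151, 140 and 147 at 150 nM and 109, 97.7 and 104 at 500 nM (log2 -0.65 ± 0.06, edgeR adjusted p = 2.5e-08). In TMD8 it had 386, 345 and 351 CPM with DMSO, 294, 277 and 266 at 150 nM, then 291, 317 and 305 at 500 nM, every treated library below every DMSO library. On rescaled TPM FDFT1 was not called in TMD8 at 500 nM. Its libraries overlapped there, at 290.8 to 317.7 with DMSO and 273.6 to 299.5 at 500 nM. HSD17B7, a sterol ketoreductase with near copies in the genome whose reads the counting may split, had 37.7, 33.8 and 34.3 CPM in OCI-Ly1 with DMSO and 28.4, 24.4 and 26.1 at 500 nM, a change of -0.42 ± 0.08. In TMD8 HSD17B7 was not called at 500 nM, but was 0.12 and called on rescaled TPM.

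NSDHL, a sterol dehydrogenase, was lower at 500 nM in both lines (-0.28 ± 0.08 and -0.31 ± 0.07). The OCI-Ly1 call was lost with library size alone (-0.19) and on log2(TPM + 1) (-0.14), and rescaled TPM gave -0.014. NSDHL had 25.1, 25.1 and 24.7 CPM in OCI-Ly1 with DMSO and 19.7, 21.2 and 20.9 at 500 nM, and in TMD8 48.7, 48.0 and 46.7 with DMSO, 40.1, 38.3 and 37.3 at 150 nM, then 38.5, 41.5 and 34.9 at 500 nM. EBP, the sterol isomerase, had in TMD8 63.2, 61.4 and 60.6 CPM with DMSO, 45.5, 48.0 and 45.7 at 150 nM, then 45.5, 42.2 and 48.1 at 500 nM. Its TMD8 change at 500 nM was -0.45 ± 0.06 (edgeR adjusted p = 2.8e-06) and its OCI-Ly1 change was -0.09 ± 0.06 (edgeR adjusted p = 0.25), which was 0.18 and called on rescaled TPM. SQLE, squalene epoxidase, changed by -0.27 ± 0.05 in OCI-Ly1 and -0.14 ± 0.05 in TMD8 at 500 nM. The OCI-Ly1 call of SQLE was lost on log2(TPM + 1) (-0.14) and on rescaled TPM (-0.00629). The TMD8 call of SQLE was lost without 500 nM replicate 1 (range over left-out libraries -0.16 to -0.12), and rescaled TPM gave 0.04 there. CYP51A1, the lanosterol demethylase, and DHCR7, the reductase of the last step, were called in neither line at 500 nM, CYP51A1 with 0.00 ± 0.06 and 0.01 ± 0.05, DHCR7 with -0.05 ± 0.07 and -0.04 ± 0.05 (OCI-Ly1, then TMD8). Other scales called some of these: DHCR7 was 0.21 in OCI-Ly1 and 0.14 in TMD8 on rescaled TPM, and CYP51A1 was -0.38 in TMD8 on log2(TPM + 1).

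In OCI-Ly1 at 500 nM, 0 of the 16 sterol enzymes were higher and 9 lower by edgeR and by DESeq2 (0 and 10 at an unadjusted p, 6 and 4 on rescaled TPM), with a median of -0.24. In TMD8 against DMSO, 2 were higher and 12 lower at 150 nM (median -0.30), and 3 were higher and 7 lower at 500 nM (median -0.11). The TMD8 split at 500 nM was 7 higher and 4 lower on rescaled TPM, and 1 and 13 on log2(TPM + 1). Among all genes 27.7% were higher and 25.9% lower in OCI-Ly1 at 500 nM. In TMD8 the shares of all genes were 19.2% and 25% at 150 nM, and 29.9% and 30.7% at 500 nM. Tested from 150 to 500 nM directly in TMD8, 9 of the 16 were higher and 1, PMVK, was lower, against 13.7% and 15% of all genes. Their median was 0.19 beside 0.01 for all genes. These comparisons share the DMSO or the 150 nM libraries, so each is given by its own values. CYP51A1 had 327, 321 and 319 CPM with DMSO, 295, 287 and 263 at 150 nM, then 311, 339 and 321 at 500 nM. DHCR7 had 144, 135 and 137 CPM, then 116, 110 and 106, then 129, 135 and 141. SQLE had 288, 273 and 274 CPM, then 233, 218 and 207, then 248, 256 and 253. For each of these 3 genes every 150 nM library lay below every library of the other groups. They were picked as examples after their values were seen, so this gap follows from the choice. The share of all genes with such a gap was not counted. The log2 changes from 150 to 500 nM were 0.20 ± 0.05 for CYP51A1, 0.29 ± 0.05 for DHCR7, 0.20 ± 0.05 for SQLE and 0.34 ± 0.06 for HMGCS1. ACAT2 at 0.20 ± 0.07 and MVK at 0.18 ± 0.06 were called as well, but left-out libraries ended the call: for ACAT2 150 nM replicate 3 (0.10) and 500 nM replicates 1 and 2, and for MVK any library of the comparison but 150 nM replicate 1. CYP51A1 lost its call from 150 to 500 nM without 500 nM replicate 2 and its call at 150 nM without 150 nM replicate 3 (-0.12). HSD17B7 at 150 nM (-0.19 ± 0.07) lost its call without any single library but DMSO replicate 3. Without 150 nM replicate 3 the fall at 150 nM was -0.21 for ACAT2 and -0.18 for IDI1, both still called. On log2(TPM + 1) the change from 150 to 500 nM was below 0 for ACAT2 (-0.02), MVK (-0.04), SQLE (-0.02) and CYP51A1 (-0.02), where the median of all genes was -0.14, and 1 of the 16 was called higher there, against 5 on centred and 11 on rescaled TPM. Of all genes called on these 3 scales, 10.4%, 41.7% and 62.7% were higher.

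**Figure D2:**
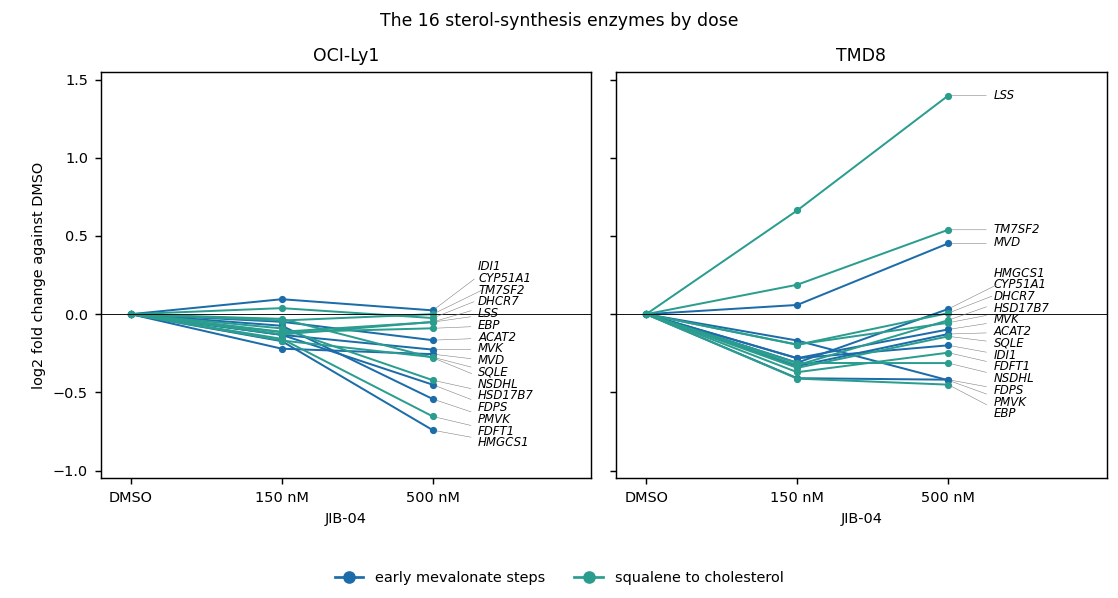
Log2 fold change against DMSO of the 16 sterol-synthesis enzymes at each dose in OCI-Ly1 (left) and TMD8 (right); blue marks early mevalonate steps and green the steps from squalene to cholesterol. In TMD8 the lines of ACAT2, HMGCS1, MVK, SQLE, CYP51A1 and DHCR7, 6 of the 16, are called lower at 150 nM and higher from 150 to 500 nM. On log2(TPM + 1) ACAT2, MVK, SQLE and CYP51A1 do not rise between the doses. Both calls use the same 150 nM libraries, and the share of all genes with both calls was not counted. LSS climbs to 1.40 in TMD8, and in OCI-Ly1 the lowest line, HMGCS1, ends at -0.74.

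Of the 3 regulators, SREBF1 and INSIG1 were called in opposite directions in the 2 lines at 500 nM. The share of all genes called in opposite directions was not counted. Of all genes, 27.7% were higher and 25.9% lower in OCI-Ly1, and 29.9% and 30.7% in TMD8. The OCI-Ly1 call of INSIG1 was lost with library size alone and on log2(TPM + 1). SREBF1, which encodes SREBP-1, rose in OCI-Ly1 from 17.8, 19.4 and 17.6 CPM with DMSO and 20.7, 20.1 and 18.2 at 150 nM to 26.8, 30.8 and 29.1 at 500 nM (log2 0.66 ± 0.08, edgeR adjusted p = 2.7e-06). In TMD8 it fell from 32.3, 35.0 and 33.1 CPM to 18.7, 17.3 and 16.3 at 150 nM and 15.4, 17.4 and 15.96 at 500 nM (log2 -1.04 ± 0.08, edgeR adjusted p = 2.6e-09). The treated groups did not overlap the DMSO group at 500 nM in either line, and in TMD8 the change at 150 nM was already -0.95 ± 0.07. SREBF1 overlaps the span of RAI1 on the opposite strand, which averaged 0.638 and 1.05 CPM with DMSO and 500 nM in OCI-Ly1 and 48.9 and 31.0 in TMD8. No strand setting is stated. Whether the 2 genes share reads, and the part of RAI1 in the result, was not tested. SREBF2, which encodes SREBP-2, had 169, 150 and 148 CPM in OCI-Ly1 with DMSO, 163, 149 and 144 at 150 nM, then 179, 195 and 194 at 500 nM (0.28 ± 0.06, edgeR adjusted p = 0.0012). In TMD8 it had 326, 311 and 313 CPM with DMSO, 295, 296 and 293 at 150 nM, then 313, 319 and 318 at 500 nM. SREBF2 was not called in TMD8 at either dose (-0.11 ± 0.04 and -0.00 ± 0.04), but scaling by library size alone gave 0.09 and rescaled TPM 0.18 at 500 nM, and both passed the threshold. INSIG1, the sterol-dependent anchor of the SREBPs and itself an SREBP target, had 157, 181 and 183 CPM in OCI-Ly1 with DMSO, 151, 167 and 154 at 150 nM, then 154, 147 and 150 at 500 nM. In TMD8 INSIG1 had 269, 242 and 239 CPM with DMSO, 262, 257 and 237 at 150 nM, then 295, 321 and 305 at 500 nM. The 500 nM change of INSIG1 was -0.21 ± 0.06 in OCI-Ly1, which was 0.06 on rescaled TPM, and 0.30 ± 0.06 in TMD8, which was -0.07 on log2(TPM + 1).

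**Figure D3:**
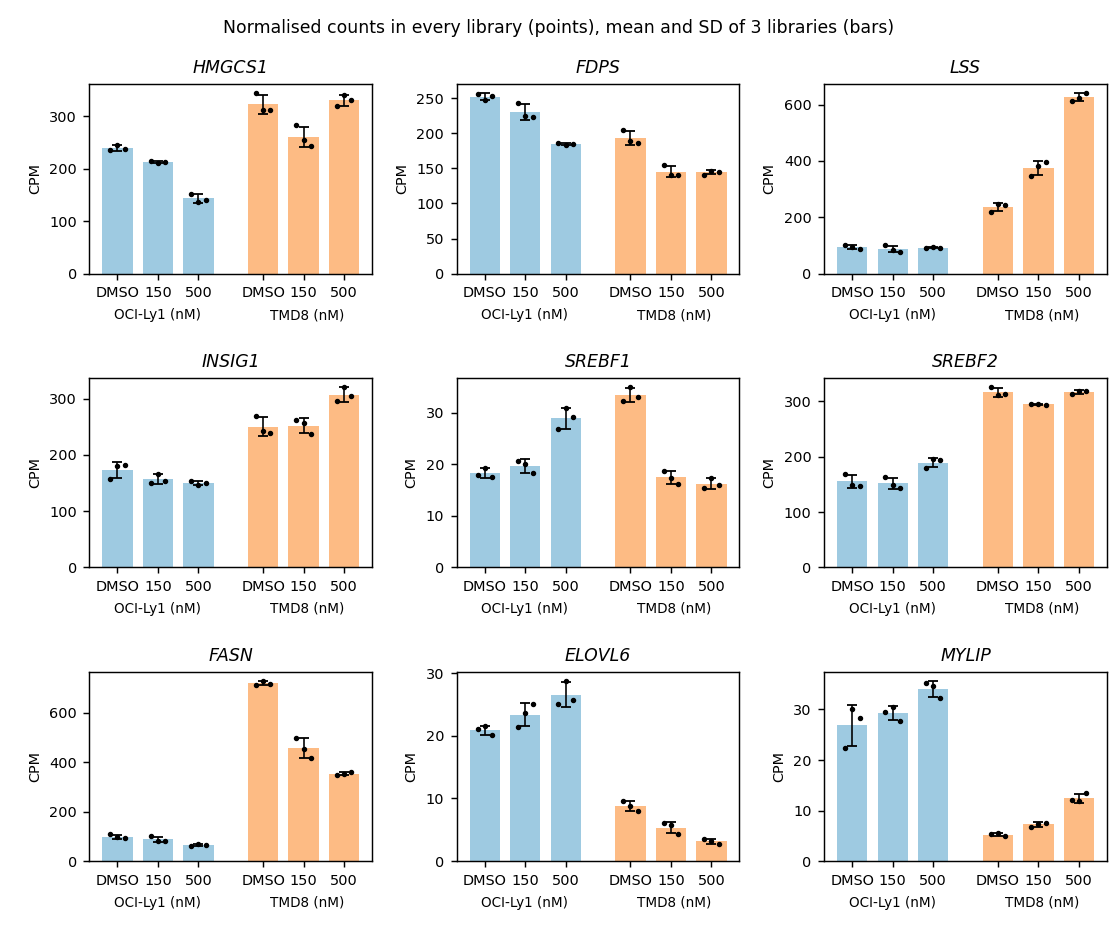
CPM of 9 genes in each library (points) with the mean and SD of 3 libraries (bars), by dose in OCI-Ly1 (blue) and TMD8 (orange); each axis starts at 0. SREBF1 and ELOVL6 rise in OCI-Ly1 and fall in TMD8, and LSS rises from 220 to 247 CPM to 612 to 640 CPM in TMD8.

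Of the carriers of sterol inside cells, NPC1, which moves cholesterol out of lysosomes, had 47.5, 48.6 and 44.9 CPM in OCI-Ly1 with DMSO and 55.8, 52.8 and 58.5 at 500 nM (0.25 ± 0.06, edgeR adjusted p = 0.0034). In TMD8 it had 70.9, 66.3 and 68.4 CPM with DMSO and 75.3, 77.1 and 73.7 at 500 nM. That TMD8 change, 0.14 ± 0.05, was lost without DMSO replicate 2 or 3 or 500 nM replicate 1 or 2 (range 0.11 to 0.16) and was -0.22 on log2(TPM + 1). From 150 to 500 nM NPC1 was called higher in TMD8 (0.16 ± 0.05) but was -0.052 on log2(TPM + 1). STARD4, a sterol carrier between membranes, rose in TMD8 from 47.0, 45.3 and 45.5 CPM to 57.6, 56.9 and 56.3 at 500 nM (0.31 ± 0.05, edgeR adjusted p = 6e-05), which was -0.06 on log2(TPM + 1). In OCI-Ly1 STARD4 had 39.8 to 46.9 CPM with DMSO and 43.1 to 46.7 at 500 nM, which overlap. It lies opposite STARD4-AS1, which averaged 5.97 CPM with DMSO and 9.47 at 500 nM in TMD8.

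In fatty-acid synthesis 5 of 7 tested genes were lower in TMD8 at both doses and 1, ACSS2, was higher, with a median of -0.43 at 500 nM beside 0.04 for all genes. In OCI-Ly1 at 500 nM 4 of 8 were lower and 2 higher (1 and 4 on rescaled TPM). Among all genes, 25.9% were lower and 27.7% higher in that comparison, so the class had a share called higher close to this. TMD8 had 25% of all genes lower and 19.2% higher with 150 nM, then 30.7% lower and 29.9% higher with 500 nM. FASN, the fatty-acid synthase, had 712, 729 and 717 CPM with DMSO, 497, 453 and 417 at 150 nM, then 350, 352 and 360 at 500 nM. The groups did not overlap, and the log2 change was -0.66 ± 0.06 at 150 nM and -1.02 ± 0.06 at 500 nM (edgeR adjusted p = 5.7e-11). In OCI-Ly1 FASN had 108, 97.4 and 91.9 CPM with DMSO, 100, 82.6 and 82.0 at 150 nM, then 62.1, 67.4 and 66.0 at 500 nM (-0.61 ± 0.08, edgeR adjusted p = 4.3e-06). ACACA, the acetyl-CoA carboxylase that supplies FASN, followed the same order in TMD8, with 146, 139 and 137 CPM, then 101, 93.5 and 85.3, then 77.0, 76.4 and 70.7 (-0.91 ± 0.06 at 500 nM, edgeR adjusted p = 5.3e-10). In OCI-Ly1 it had 177, 182 and 169 CPM with DMSO and 144, 140 and 144 at 500 nM (-0.30 ± 0.06). ACLY, which makes acetyl-CoA from citrate, changed by -0.30 ± 0.05 in OCI-Ly1 and -0.43 ± 0.05 in TMD8, and SCD, the stearoyl-CoA desaturase, by -0.28 ± 0.06 and -0.31 ± 0.05. On rescaled TPM the OCI-Ly1 changes of ACACA, ACLY and SCD were -0.033, -0.032 and -0.017 and were not called. From 150 to 500 nM in TMD8, FASN, ACACA and ELOVL6 fell further while ACLY and SCD were not called.

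ELOVL6, which lengthens palmitate, had opposite directions in the lines. In OCI-Ly1 it had 21.0, 21.5 and 20.1 CPM with DMSO, 21.4, 23.7 and 25.0 at 150 nM, then 25.1, 28.8 and 25.7 at 500 nM (0.34 ± 0.08, edgeR adjusted p = 0.0019). In TMD8 it had 9.65, 8.86 and 7.95 CPM, then 6.02, 5.73 and 4.32, then 3.49, 3.29 and 2.66 (-1.46 ± 0.16, edgeR adjusted p = 5e-07), with no overlap between groups. ACSS2, which makes acetyl-CoA from acetate, rose in both lines, but on log2(TPM + 1) was not called higher in TMD8 at either dose. It had 2.97, 3.34 and 3.63 CPM in OCI-Ly1 with DMSO and 5.78, 5.61 and 4.28 at 500 nM (0.66 ± 0.17, edgeR adjusted p = 0.0032), and in TMD8 15.2, 15.3 and 14.3 with DMSO, 17.3, 20.3 and 18.6 at 150 nM, then 18.8, 21.2 and 21.9 at 500 nM (0.46 ± 0.09, edgeR adjusted p = 0.00016). GGT7, which overlaps ACSS2 on the opposite strand, averaged 7.69 CPM with DMSO and 12.9 at 500 nM in OCI-Ly1, and 23.5 and 35.9 in TMD8; its part in the result was not tested. The desaturases of long unsaturated chains were not called: FADS1 changed by 0.20 ± 0.08 in OCI-Ly1 and -0.10 ± 0.07 in TMD8 at 500 nM, and FADS2 by 0.05 ± 0.08 in OCI-Ly1. FADS2 was under the count filter in TMD8, with 0.299 to 1.02 CPM in its 9 libraries. FADS1 and FADS2 overlap each other, and FADS2 overlaps FEN1.

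Of the efflux genes and MYLIP, 2 were higher and 0 lower in TMD8 at each dose by edgeR. DESeq2 gave 1 higher at 150 nM and 2 at 500 nM, log2(TPM + 1) 0 and 1, and centred and rescaled TPM each 1 and 2, and 0 were lower by any of these or at an unadjusted p. With DMSO in TMD8 the mean TPM was 0.146 for ABCA1, 0.175 for ABCG1 and 1.24 for MYLIP. The pseudocount of 1 shrinks changes at such levels, so a missing call on log2(TPM + 1) says little about these genes. In OCI-Ly1 1 was higher and 1 lower at 500 nM, against 27.7% and 25.9% of all genes. The shares of all genes in TMD8 were 19.2% higher and 25% lower at 150 nM, and 29.9% and 30.7% at 500 nM. MYLIP rose in TMD8 from 5.27, 5.49 and 4.98 CPM to 6.82, 7.32 and 7.64 at 150 nM and 12.0, 11.8 and 13.5 at 500 nM (2.36-fold, log2 1.24 ± 0.11, edgeR adjusted p = 3.7e-08). In OCI-Ly1 it went from 22.4, 30.1 and 28.2 CPM to 35.3, 34.7 and 32.2 at 500 nM (0.35 ± 0.09, edgeR adjusted p = 0.004, 0.22 without DMSO replicate 1). ABCA1, which exports cholesterol to lipid-poor apolipoprotein, had in TMD8 2.16, 2.35 and 2.06 CPM with DMSO, 2.47, 3.04 and 4.27 at 150 nM, then 4.22, 4.94 and 3.27 at 500 nM (0.94 ± 0.22, edgeR adjusted p = 0.0013). Its 150 nM call (0.60 ± 0.22) was lost without DMSO replicate 1 or 3 or 150 nM replicate 3, with a range of 0.36 to 0.76. In OCI-Ly1 ABCA1 had 35.1, 33.4 and 38.2 CPM with DMSO, 40.7, 39.8 and 39.7 at 150 nM, then 33.5, 37.6 and 31.4 at 500 nM, and was not called at either dose. ABCG1, which exports cholesterol to lipoproteins, fell in OCI-Ly1 from 9.87, 10.6 and 9.64 CPM to 9.61, 8.50 and 7.40 at 150 nM and 5.96, 6.31 and 6.55 at 500 nM (-0.67 ± 0.12, edgeR adjusted p = 0.00016). In TMD8 ABCG1 stood at 0.511 to 1.02 CPM in all 9 libraries, with a change of -0.30 ± 0.36 at 500 nM, whose interval spans both 0 and the OCI-Ly1 value. In neither line were ABCA1, ABCG1, MYLIP and SREBF1 all called in the same direction.

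At 500 nM, 9 genes were lower in both lines: PMVK, FDPS, FDFT1, SQLE, NSDHL, ACLY, ACACA, FASN and SCD, of the 15 lower in OCI-Ly1 and the 13 lower in TMD8. NPC1, ACSS2 and MYLIP were higher in both. On log2(TPM + 1) neither NPC1 nor ACSS2 was called higher in TMD8. On centred TPM neither NPC1 nor MYLIP was called higher in OCI-Ly1. Of the 14483 genes tested in both lines, 13.7% were lower in both and 14.1% higher in both. PMVK, FDPS and FASN kept the call and direction in both lines under every alternative run, while in OCI-Ly1 SQLE, NSDHL, ACLY, ACACA and SCD were between -0.033 and -0.00629 on rescaled TPM. In TMD8 neither FDFT1 nor SQLE was called on rescaled TPM. MVK, CYP51A1, DHCR7 and FADS1 were called in neither. The difference between the lines was tested in a fit of all 18 libraries, as the OCI-Ly1 change minus the TMD8 change. At 500 nM it was called above 0 for 7 genes, called below 0 for 10 and not called for 15. Of all genes, 28.2% were called above 0 and 18.1% below. At 150 nM it was called above 0 for 11 and below 0 for 1, LSS, against 15% and 8.33% of all genes. On rescaled TPM 7 were called above 0 at 150 nM, and with library size alone 8 were called above and 3 below. At 500 nM log2(TPM + 1) gave 20 called above 0 and 2 below, where the median of all genes was 0.38. The differences at 500 nM were 1.83 ± 0.18 for ELOVL6, 1.74 ± 0.12 for SREBF1, -1.42 ± 0.10 for LSS, -0.98 ± 0.21 for ABCA1, -0.86 ± 0.15 for MYLIP and -0.74 ± 0.08 for HMGCS1. For the first 3 the edgeR adjusted p was 7.1e-09, 6.5e-12 and 1.9e-11. On log2(TPM + 1) the called differences of FDFT1, HSD17B7, INSIG1 and STARD4 went from below 0 to 0.10, 0.11, 8.11e-05 and 0.21. The 95% interval of the difference was -0.15 to 0.15 for FDPS, -0.13 to 0.57 for ACSS2 and -1.06 to 0.38 for ABCG1, none of them called, and FDPS was 0.47 and called on log2(TPM + 1). HSD17B7 lost its call without OCI-Ly1 DMSO replicate 1, and FADS1 without OCI-Ly1 DMSO replicate 3. STARD4 (-0.27) was not called by DESeq2 (-0.24) or with 8 of the left-out libraries.

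**Figure D4:**
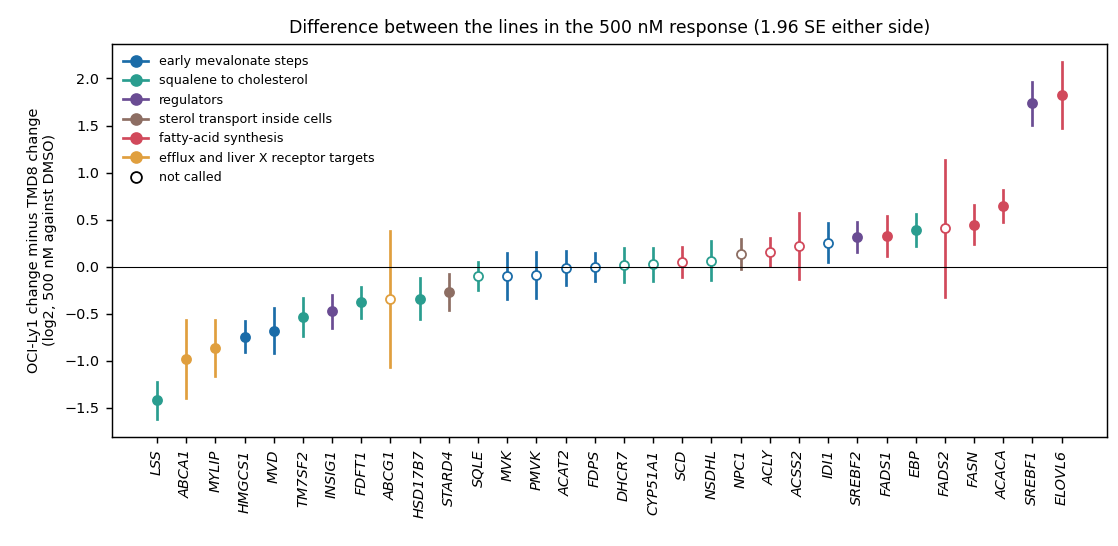
Difference between the lines in the log2 change at 500 nM (OCI-Ly1 minus TMD8) for each of the 32 genes, in order of size; lines span the 95% interval and open circles were not called. LSS is lowest at -1.42, and SREBF1 and ELOVL6 are highest at 1.74 and 1.83.

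With DMSO alone the lines differed in 31 of the 32 genes, all but EBP: 10 were higher in OCI-Ly1 and 21 in TMD8, against 37.8% and 39% of all genes. On log2(TPM + 1), where the median of all genes was 0.61, the split was 21 and 7, and 11 of the genes higher in TMD8 by edgeR turned above 0. These were HMGCS1 (0.42), MVD (0.42), IDI1 (0.45), SQLE (0.62), CYP51A1 (0.52), TM7SF2 (0.49), INSIG1 (0.32), STARD4 (0.75), NPC1 (0.28), ACLY (0.49) and FADS1 (0.15). On counts scaled over both lines together, FASN had 104.7, 93.5 and 88.2 CPM in OCI-Ly1 against 752.6, 760.6 and 747.6 in TMD8, and SCD had 126.2, 130.5 and 129.4 against 780.4, 725.2 and 718.0. The efflux genes stood the other way, with ABCA1 at 33.9, 32.1 and 36.7 CPM in OCI-Ly1 and 2.28, 2.46 and 2.15 in TMD8. The log2 differences (OCI-Ly1 minus TMD8) were -2.98 ± 0.08 for FASN, -2.53 ± 0.06 for SCD, -2.29 ± 0.13 for ACSS2, 3.90 ± 0.13 for ABCA1, 3.69 ± 0.19 for ABCG1, 2.23 ± 0.11 for MYLIP and 4.89 ± 0.17 for FADS2. STARD4, at -0.18 ± 0.07, was not called without DMSO replicate 1 of either line, ranged from -0.22 to -0.11, and was 0.03 on centred TPM. Per length, on rescaled TPM, the order in OCI-Ly1 with DMSO began with FDPS (304 ± 11.0, SD, n = 3), ACLY (165 ± 1.73) and ACAT2 (150.5 ± 10.3) and ended with ACSS2 (1.70 ± 0.20). In TMD8 it began with FDFT1 (301.7 ± 14.1), FDPS (258 ± 8.57) and ACLY (238 ± 0.87) and ended with ABCA1 (0.345 ± 0.024). Of the 31 pairs of neighbours in that order, the libraries overlapped in 13 in OCI-Ly1 and 11 in TMD8, so those neighbours are not separated.

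**Figure D5:**
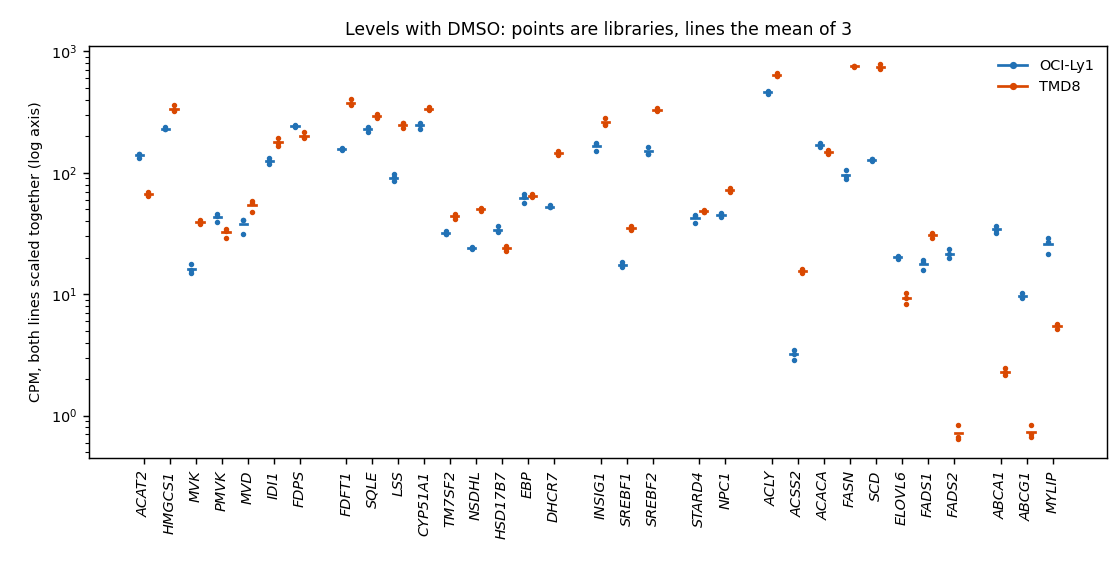
CPM of the 32 genes with DMSO on a log axis, OCI-Ly1 in blue and TMD8 in orange, scaled over both lines together; points are libraries and short lines the mean of 3. FASN, SCD and ACSS2 lie higher in TMD8, and FADS2, ABCA1, ABCG1 and MYLIP lie higher in OCI-Ly1.

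The other genes of these pathways, 39 by a list that also holds SREBP processing, liver X receptors, elongation, and storage and movement of sterol, were counted beside the members. At 500 nM in OCI-Ly1, 36 had enough counts, of which 16 were higher and 10 lower, against 27.7% and 25.9% of all genes, so the share lower was close to that of all genes. In TMD8 38 had enough, of which 9 were higher and 18 lower, against 29.9% and 30.7% of all genes. Those splits were 18 and 4, and 2 and 27, on log2(TPM + 1), and 23 and 0, and 16 and 12, on rescaled TPM. Of all genes called on log2(TPM + 1), 71.9% were higher in OCI-Ly1 and 18.8% in TMD8. On rescaled TPM these were 84.7% and 68.3%. Among those with the largest change called in both lines were LPIN1, ACACB, ELOVL1, ACAT1 and STARD3, and by edgeR each of these moved the same way in both. ACAT1, the mitochondrial thiolase, changed by -0.37 ± 0.05 and -0.52 ± 0.07, and ELOVL1, an elongase of very long chains, by -0.41 ± 0.08 and -0.63 ± 0.07. On rescaled TPM the OCI-Ly1 changes of ACAT1 and ELOVL1 were -0.11 and -0.13 and were not called. LPIN1, a phosphatidate phosphatase of glycerolipid synthesis, rose from 132, 139 and 140 CPM to 225, 213 and 221 in OCI-Ly1 and from 112, 103 and 102 to 170, 164 and 168 in TMD8 (0.68 ± 0.05 and 0.67 ± 0.05). ACACB, the mitochondrial carboxylase whose malonyl-CoA restrains fatty-acid oxidation, changed by 0.59 ± 0.10 and 0.68 ± 0.10, opposite to ACACA. STARD3, a sterol carrier of late endosomes, changed by 0.74 ± 0.07 and 0.33 ± 0.06, the latter -0.032 on log2(TPM + 1). Of the 6 listed genes of sterol storage and movement, 5 were higher and 1 lower in OCI-Ly1, and 2 were higher and 1 lower in TMD8, against the shares of all genes given above. On rescaled TPM each line had 5 higher and 0 lower, where most called genes of all were higher too, by the shares given above. On log2(TPM + 1) OCI-Ly1 had 5 higher and 0 lower, but TMD8 had 0 higher and 3 lower.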

How the data were processed

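The authors deposited estimated counts and TPM per gene symbol for each line, made with kallisto 0.46.0 against hg19, with R 4.3.1 and DESeq2 1.40.2 also named, per the submitters' processing notes; which step used which is not given in the sources used here, nor is the strand setting. The deposited TPM carry no depth, and here they serve for alternatives and for levels between genes. The deposited estimated counts were rounded to whole numbers and tested with edgeR 4.0.16 (quasi-likelihood, TMM, low-count filter by group) in R 4.3.3, over 9 libraries for a line and 18 for both lines, with Benjamini-Hochberg adjustment over all tested genes and a threshold of 0.05. The fits were also run on counts simulated with their own estimated spread and library sizes. Such counts cannot show how the fits behave with technical triplicates or where many genes change. DESeq2 1.42.0, and limma 3.58.1 on log2(TPM + 1) with a pseudocount of 1, were alternatives, as were other size factors, other filters, fewer groups and left-out libraries. Rescaling TPM without 7 short RNAs was added after seeing the data. No pair of libraries in a group was within sampling noise (chi-square per degree of freedom 1.62 to 10.9 over 18 pairs). No other sample columns were in the tables.

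The members and lists were chosen with earlier results of these data known. Values in every library are given for the members with the largest called change at 500 nM (at most 3 per class and line), for the regulators and efflux genes, and for the 6 largest differences between lines; CYP51A1, DHCR7 and SQLE were added after their values were seen, as examples of a direct test from 150 to 500 nM. Intervals are 95% normal intervals from the SE. Of the 39 other pathway genes, 3 were matched by older symbols. A B-cell marker and a gene of that list are not reported here by name; the counts over the list include the latter.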

Additional observations from a re-analysis of the deposited data

Results flagged for a closer look

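The response to JIB-04 differed between the lines for these genes by the test of the difference itself (edgeR, adjusted over all genes, OCI-Ly1 change minus TMD8 change, log2). At 150 nM the difference was 0.289 for ACAT2, 0.384 for IDI1, 0.284 for FDPS, -0.769 for LSS, 0.288 for NSDHL, 0.304 for EBP, 1.07 for SREBF1, 0.263 for ACLY, 0.519 for ACACA, 0.501 for FASN, 0.299 for SCD and 0.903 for ELOVL6. At 500 nM it was -0.744 for HMGCS1, -0.679 for MVD, -0.377 for FDFT1, -1.42 for LSS, -0.535 for TM7SF2, -0.337 for HSD17B7, 0.391 for EBP, -0.474 for INSIG1, 1.74 for SREBF1, 0.315 for SREBF2, -0.267 for STARD4, 0.645 for ACACA, 0.447 for FASN, 1.83 for ELOVL6, 0.33 for FADS1, -0.977 for ABCA1 and -0.862 for MYLIP. LSS, SREBF1, ACACA, FASN, ELOVL6 and EBP were called at both doses with the same sign. At 150 nM the calls of ACAT2, NSDHL and EBP were lost with library size alone (0.205, 0.203 and 0.219). That of NSDHL was also lost without a low-count filter (0.295) and with 10 of the libraries left out one at a time, and that of ACAT2 without TMD8 DMSO replicate 1 or 150 nM replicate 3. At 500 nM DESeq2 did not call STARD4 (-0.242). Line and culture medium changed together in these comparisons and cannot be told apart. The 150 nM and 500 nM differences share the DMSO libraries.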

How the results depend on the processing

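A sign change is counted where the value or its alternative passed the threshold. On rescaled TPM it changed for OCI-Ly1 500 nM against DMSO ACAT2 0.102, MVD 0.0183, LSS 0.278, TM7SF2 0.237, EBP 0.175, DHCR7 0.213, INSIG1 0.0551, and for OCI-Ly1 500 nM against 150 nM TM7SF2 0.178, ACLY 0.0294, ACACA 0.0273, SCD 0.0864, ABCA1 0.00603, and for TMD8 500 nM against DMSO SQLE 0.0364, HSD17B7 0.119, DHCR7 0.139, SREBF2 0.175. On log2(TPM + 1) it changed for TMD8 500 nM against DMSO HMGCS1 -0.333, CYP51A1 -0.379, INSIG1 -0.0732, STARD4 -0.0614, NPC1 -0.215, and for TMD8 500 nM against 150 nM ACAT2 -0.0214, MVK -0.0363, SQLE -0.0183, CYP51A1 -0.0208, NPC1 -0.0515, and for the difference between lines at 500 nM ACAT2 0.46, MVK 0.35, PMVK 0.345, FDPS 0.466, FDFT1 0.103, SQLE 0.373, HSD17B7 0.114, INSIG1 8.11e-05, STARD4 0.208, and for the lines with DMSO HMGCS1 0.417, MVD 0.418, IDI1 0.453, SQLE 0.623, CYP51A1 0.524, TM7SF2 0.49, EBP 0.89, INSIG1 0.318, STARD4 0.751, NPC1 0.279, ACLY 0.489, FADS1 0.151. On library size alone it changed for TMD8 500 nM against DMSO SREBF2 0.0921. On centred TPM it changed for the lines with DMSO EBP 0.165, STARD4 0.0273. The cause was not tested. All other sign changes were of values not called under either setting.

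The numbers of members called moved as follows. OCI-Ly1 at 500 nM had 15 higher and 6 lower on rescaled TPM. From 150 to 500 nM OCI-Ly1 had 8 higher with library size alone, 9 higher and 7 lower on log2(TPM + 1), 3 higher on centred TPM, and 13 higher and 3 lower on rescaled TPM. TMD8 at 150 nM had 1 higher on log2(TPM + 1) and 3 on centred TPM; at 500 nM 2 higher and 21 lower on log2(TPM + 1), and 14 higher on rescaled TPM; from 150 to 500 nM 2 higher on log2(TPM + 1) and 8 on centred TPM. The difference between lines at 150 nM was called above 0 for 7 on rescaled TPM and called below 0 for 3 with library size alone, and at 500 nM called above 0 for 20 and below for 2 on log2(TPM + 1). With DMSO 21 were higher in OCI-Ly1 and 7 lower on log2(TPM + 1). Leaving out 1 library gave 0 to 1 lower in OCI-Ly1 at 150 nM, 3 to 7 higher from 150 to 500 nM in OCI-Ly1, 3 to 4 higher in TMD8 at 150 nM, and 1 to 2 below 0 in the difference between lines at 150 nM.

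Of the called members, 17 of 21 in OCI-Ly1 at 500 nM, 19 of 23 in TMD8 at 150 nM and 19 of 22 at 500 nM kept call and direction under every alternative on counts, and 10, 17 and 12 under every alternative run. From 150 to 500 nM these were 11 of 17 and 6 in OCI-Ly1, and 12 of 17 and 5 in TMD8. For the difference between lines they were 9 of 12 and 8 at 150 nM and 14 of 17 and 7 at 500 nM, and for the lines with DMSO 30 of 31 and 17.

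Same-numbered libraries showed little pairing: 2 of 9 correlations of their deviations were over 0.1 in each line (medians 0.00648 and -0.0155). Among differently numbered pairs, OCI-Ly1 had 0 of 18 over 0.1 (highest 0.0419), while TMD8 had 1 of 18 (0.105). The same-numbered correlations over 0.1 were all between DMSO and 150 nM libraries, for replicates 1 and 3 of either line. Their values were 0.123 and 0.146 for OCI-Ly1, then 0.125 and 0.141 for TMD8. With the replicate number as a block, OCI-Ly1 at 500 nM had 7 higher and 16 lower, TMD8 5 and 18 at 150 nM and 9 and 13 at 500 nM, and the difference between lines 12 and 1 at 150 nM and 8 and 10 at 500 nM.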
